A study of Mus musculus with 12 samples.

Results

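Hepatic gene expression of Balb/c mice 1 h after an injection of concanavalin A (ConA) was compared with that of the control group, over all 18193 genes tested. The comparison uses 6 of the 12 arrays of the series, namely the 3 arrays labelled 0 hr and the 3 labelled 1 hr with ConA as the agent, and the arrays at 3 h and 6 h enter where a value at 1 h is set against later ones. All mice were males of 8 to 10 weeks, the tissue was whole liver, and ConA was given at 20 mg/kg into the tail vein. The labels call the 0 h mice untreated, whereas the study's methods name an injection of PBS as the negative control. The labels give controls at 0 h only, so an effect of ConA and one of the injection or of the time of day cannot be told apart in this comparison. The sources do not say whether each array held RNA of a single mouse, and p-values then measure only the spread between these samples, which may be technical.

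ConA is a plant lectin that binds sugar chains on the cell surface, and after intravenous injection it gathers in the liver sinusoids, where it activates T cells, natural killer T cells and Kupffer cells, the resident macrophages of the liver. The cytokines these cells release act on sinusoidal endothelium and hepatocytes, and the injury that follows is a widely used model of immune-mediated hepatitis. Such stimuli first switch on immediate-early genes, which need no new protein for their transcription, largely through MAP kinases and the transcription factor NF-kB. In whole liver, a change in the number of cells of a type and a change in the RNA per cell cannot be told apart.

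Each value is the linear signal of a probe of an Affymetrix array of the mouse genome as deposited, in arbitrary units, and before log2 was taken any signal below 3.04, the 20th percentile of all values, was raised to that floor. Signals printed here are the deposited ones, so that a value under 3.04 counted as the floor. Differences are log2 changes, 1 h minus control, with their SE from limma, and a gene was called higher or lower where its p, adjusted by Benjamini-Hochberg over the 18193 genes, was under 0.05. A single probe stands for a gene. Signals of different probes are not compared with each other, apart from sums of marker signals and shares of them, in which bright probes weigh most. The 6 arrays were alike in quality, with medians from 15.6 to 19.0 and ratios of the 3' to the 5' control probes from 0.875 to 1.03 for Gapdh and from 2.13 to 2.70 for beta-actin. Of 12 hepatocyte markers measured, limma called 0 higher and 0 lower (2 higher and 0 lower at an unadjusted p under 0.05), and albumin (Alb) had signals of 9211, 9852 and 10302 in the control group and 9606, 9735 and 9408 at 1 h.

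Promoters are shown first for the chemokines Cxcl2, Cxcl10 and Cxcl1 and for Tnfaip3, an inhibitor of NF-kB, because these are the genes among the 25 largest rises whose promoter held a kappaB-like motif, which is GGG and TTCC with 3 bases of any kind between them, on either strand in the 250 bases before the start of transcription. A promoter was found for 19 of these 25 genes, and the rest were not searched. The bases are those of RefSeq for build GRCm38.p6, printed 5' to 3' on the gene's strand with the matches in capitals; overlapping matches run together. Cxcl2 lies at chr5:90903649-90903898 on the plus strand, Cxcl10 at chr5:92348890-92349139 on the minus strand, Tnfaip3 at chr10:19015411-19015660 on the minus strand and Cxcl1 at chr5:90890995-90891244 on the plus strand.
Cxcl2: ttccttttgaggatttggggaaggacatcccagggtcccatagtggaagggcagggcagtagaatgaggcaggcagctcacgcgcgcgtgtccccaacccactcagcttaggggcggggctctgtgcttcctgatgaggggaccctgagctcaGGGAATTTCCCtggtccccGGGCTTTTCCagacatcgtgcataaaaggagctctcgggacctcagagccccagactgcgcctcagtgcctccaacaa
Cxcl10: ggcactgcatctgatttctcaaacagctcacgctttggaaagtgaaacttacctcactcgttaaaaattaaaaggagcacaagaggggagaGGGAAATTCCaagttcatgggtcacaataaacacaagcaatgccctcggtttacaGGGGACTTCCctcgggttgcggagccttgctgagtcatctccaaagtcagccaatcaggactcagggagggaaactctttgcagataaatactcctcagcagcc
Tnfaip3: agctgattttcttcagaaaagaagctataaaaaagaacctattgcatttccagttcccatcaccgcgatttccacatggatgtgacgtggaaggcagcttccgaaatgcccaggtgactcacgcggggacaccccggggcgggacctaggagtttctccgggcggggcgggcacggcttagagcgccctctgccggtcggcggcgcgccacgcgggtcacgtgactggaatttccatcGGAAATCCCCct
Cxcl1: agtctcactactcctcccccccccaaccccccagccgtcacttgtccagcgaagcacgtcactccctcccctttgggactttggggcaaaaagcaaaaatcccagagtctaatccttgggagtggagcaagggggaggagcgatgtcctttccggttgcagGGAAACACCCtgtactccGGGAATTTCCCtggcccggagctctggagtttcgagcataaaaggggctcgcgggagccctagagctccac
In Cxcl2 the matches began 97, 96 and 78 bases before the start, and those at 97 and 96 are 1 nearly symmetric stretch read on both strands. Cxcl10 held matches at 159 and 104 bases, Cxcl1 at 89, 71 and 70 bases, and the promoter of Tnfaip3 shown here a single match 12 bases before the start. A second promoter listed for Tnfaip3 held a match 90 bases before its own start.

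Promoters were found in the RefSeq table for 220 of the genes higher at 1 h (286 promoters, since a gene can have several) and for 14452 of all genes tested (18109 promoters). The kappaB-like motif was present in 9.79% of the promoters of genes higher at 1 h and in 4.86% of all promoters of the same length. The STAT-like motif TTCNNNGAA was present in 11.5% and 6.21%, the AP-1-like motif TGANTCA in 7.69% and 5.62%, the cAMP response element TGACGTCA in 3.85% and 2.12%, and the CArG box in 2.80% and 1.23%. Each motif was read on both strands, and matches of different motifs may overlap. All 5 shares were higher among the genes that rose, as a description of these letters without a test. A match does not show that a factor binds, and a promoter without one says only that the letters are not in this window.

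At 1 h, 272 genes were higher than in the control group and 27 were lower, which is 1.5% and 0.148% of the genes tested. Each count of list members called at 1 h is to be read beside these shares. At an unadjusted p under 0.05 the counts were 1580 and 449. Of the genes called, 91.0% were higher, and this split was 76.5% (235 higher, 72 lower) after quantile normalization of the 12 arrays and 83.6% (229 higher, 45 lower) after each array was centred on its median. The median log2 change of all genes was 0.08 as deposited and -0.02 under both other scalings. Of the 272 genes higher as deposited, 223 were also higher after quantile normalization and 221 after centring, and 26 of the 27 lower genes were also lower under each.

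Among the 272 higher genes, 208 rose over 2-fold, 101 over 4-fold, 52 over 8-fold and 25 over 16-fold, whereas 21 of the 27 lower genes fell over 2-fold and 4 over 4-fold. All 272 had their 3 arrays at 1 h above the 3 control arrays and all 27 had them below; among all genes tested 10.6% lay fully above and 3.36% fully below the controls. In 10 of the higher genes all 3 control arrays were at the floor. ConA 1 h replicate 1 was the highest array in 128 of the higher genes, replicate 2 in 108 and replicate 3 in 36. With the 6 arrays fitted alone, without the shared estimate of the spread from the later groups, 106 genes were higher and 7 lower.

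**Figure D1:**
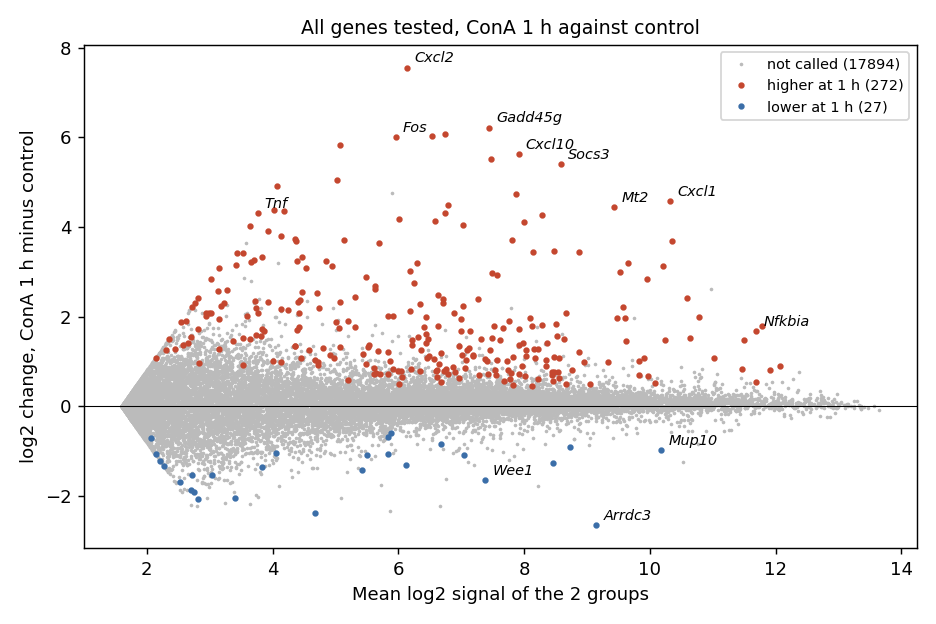
Log2 change, ConA 1 h minus control (vertical axis), against the mean log2 signal of both groups (horizontal axis) for the 18193 genes tested, with 272 genes higher in red, 27 lower in blue and the rest in grey. The rises reach a log2 change of 7.55 for Cxcl2, whereas the largest fall is that of Arrdc3 at -2.65.

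The 25 largest rises were, in order, Cxcl2, Gadd45g, Ier3, Gadd45b, Fos, Ccl2, Cxcl10, Tnfaip3, Socs3, Cd83, Ccl3, Egr1, Cxcl1, Il1b, Mt2, Hcar2, Egr3, S100a8, Tnf, Icam1, Hspa1a, S100a9, Junb, Rnd1 and Nr4a3. They are chemokines and cytokines, immediate-early transcription factors, inhibitors of the signals that induce them, and a few genes of other kinds. Of these, 21 were called under every alternative setting in which they could be tested. Gadd45g and Mt2 lost the call when only the 6 arrays were fitted (adjusted p = 0.067 and 0.12), Tnf with a floor at the 40th percentile (adjusted p = 0.075) and Egr3 when all its probes were averaged (adjusted p = 0.20). The order of neighbours in this list is not resolved by the data, since 22 of the 24 steps from a gene to the next are smaller than the SE of the higher one. In 8 of the 25 at least 1 control array was under the floor, and the size of their log2 change depends on it.

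**Figure D2:**
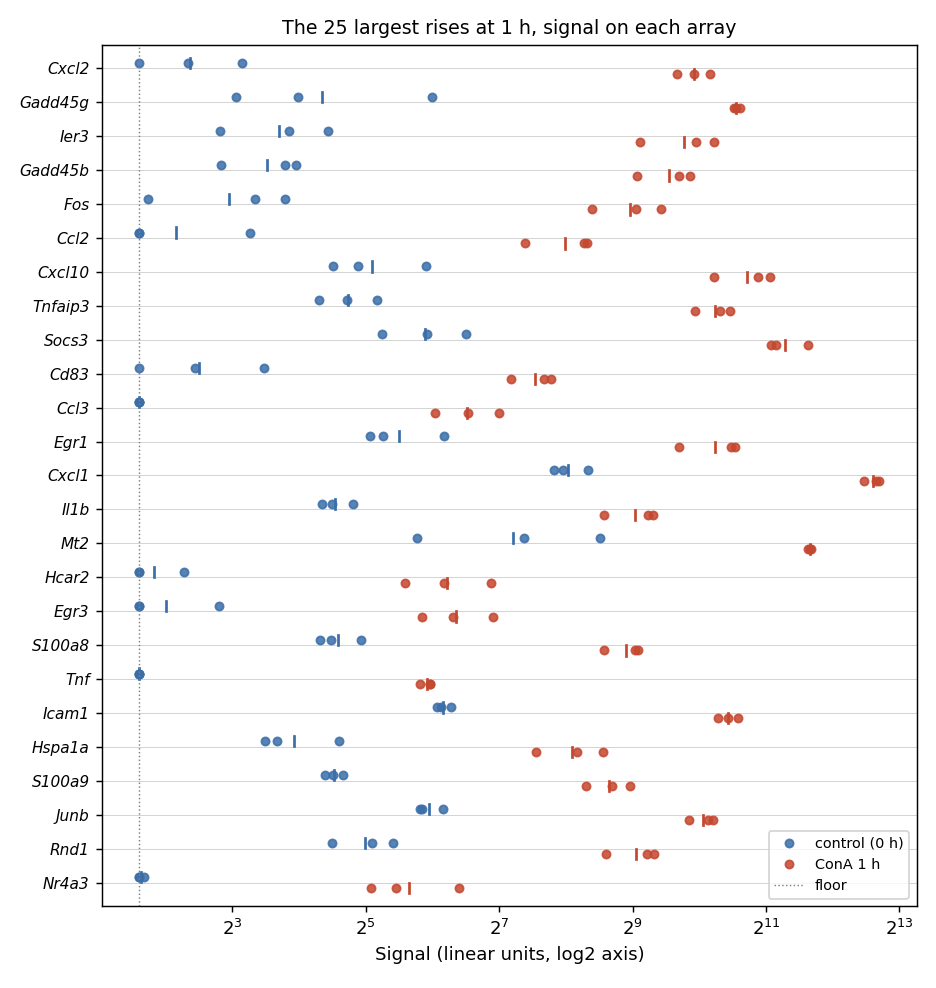
Signal on each array (horizontal log2 axis, linear units) of the 25 largest rises at 1 h, with the 3 control arrays in blue, the 3 ConA 1 h arrays in red, the group means of log2 values as short vertical bars and the floor of 3.04, at which lower signals are drawn, as a dotted line. In every row the red points lie to the right of all blue points, and for Ccl3 and Tnf the 3 control arrays are at the floor.

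Chemokines held the single largest rise. Of 28 chemokine genes measured, 11 rose and 0 fell, beside 1.5% of all genes higher, with a median log2 change of 1.05 against 0.08 for all genes. Cxcl2, a ligand of the receptor CXCR2 that draws neutrophils, had signals of 0.571, 8.82 and 5.06 in the control group and 967, 1145 and 814 at 1 h (log2 change 7.55, SE 0.60, adjusted p = 0.00017). Its highest control array was thus far below its lowest array at 1 h, although 1 control array was under the floor. Cxcl1, a second CXCR2 ligand, was already well above the floor in the control group at 225, 321 and 248, and reached 6659.9, 6443 and 5668 (log2 change 4.58, SE 0.15, adjusted p = 6.9e-07). Its other 2 probes also rose, with log2 changes of 4.65 and 3.65. Both genes are among those whose promoter held more than 1 kappaB-like match. Cxcl3, another CXCR2 ligand, rose as well (log2 change 2.59, adjusted p = 0.024), whereas Cxcl5, a CXCR2 ligand too, did not pass the test (signals of 1.46, 3.60 and 1.98 in the control group and 1.64, 11.1 and 0.801 at 1 h, adjusted p = 0.74).

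Ligands of CXCR3, which draw activated T cells and natural killer cells, rose beside them. Cxcl10 had signals of 29.4, 60.2 and 22.9 in the control group and 1883, 2135 and 1198 at 1 h (log2 change 5.62, SE 0.35, adjusted p = 4.1e-05), and the groups were far apart. Cxcl9 went from 109, 249.9 and 107 to 2044, 2165 and 849 (log2 change 3.44, SE 0.40, adjusted p = 0.0020), with replicate 3 at 1 h well below the other 2. Cxcl11 rose least of the 3 (log2 change 1.03, adjusted p = 0.016), and its other probe was not called (log2 change 0.39). Among the CC chemokines, Ccl2, which draws monocytes through CCR2, had control signals of 1.44, 9.62 and 1.00 and signals of 318, 308 and 167 at 1 h (log2 change 5.83, SE 0.44, adjusted p = 0.00012). The control arrays of Ccl3, which draws macrophages and other leukocytes, were all under the floor (0.974, 2.85 and 1.29), and those at 1 h read 93.1, 127 and 65.6, so that it was at least 30.2-fold higher (adjusted p = 2.8e-05). The related Ccl4 (log2 change 2.43, adjusted p = 0.0018), Ccl7 (log2 change 2.37, adjusted p = 0.0086) and Ccl12 (at least 7.11-fold, adjusted p = 0.00050) rose too. Ccl5 did not pass the test (log2 change 2.39, adjusted p = 0.10), with its 3 arrays at 1 h above the controls.

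Of 36 cytokine genes measured, 8 rose and 0 fell, with a median log2 change of 0.82. Il1b, the secreted form of interleukin 1, had signals of 20.3, 28 and 22.5 in the control group and 631, 599.6 and 379 at 1 h (log2 change 4.48, SE 0.26, adjusted p = 2.9e-05), and Il1a, which acts largely as an alarm signal from within cells, went from 13.4, 13 and 17.9 to 204, 219.6 and 133 (log2 change 3.63, SE 0.22, adjusted p = 3.6e-05). Both rose by more than the whole spread of the control arrays, and replicate 3 was the lowest at 1 h in each. Tnf, a cytokine needed for hepatocyte death in this model, was under the floor in all 3 control arrays (1.58, 2.44 and 2.96) and read 62.3, 62.4 and 56.5 at 1 h. The 3 arrays at 1 h were close together, and Tnf was at least 19.8-fold higher (SE 0.66 on the log2 scale, adjusted p = 0.012). Of the 4 groups that enter this SE the spread was widest at 6 h, where the signals of Tnf were 42.6, 6.73 and 58.6. Il6, which induces acute-phase proteins in hepatocytes, had signals of 0.557, 4.92 and 4.14 and 69.99, 62.4 and 47.2 (log2 change 3.90, SE 0.36, adjusted p = 0.00047). Ifng and Il4, the 2 cytokines that natural killer T cells release first, also rose. Ifng went from 0.163, 4.83 and 0.982 to 27.7, 63 and 30.6 (log2 change 3.41, SE 0.38, adjusted p = 0.0017) and Il4 from 4.57, 1.40 and 3.34 to 17.3, 33.6 and 16.7 (log2 change 2.57, SE 0.32, adjusted p = 0.0036), so that replicate 2 was the highest at 1 h in both. The other members called were Csf1, the growth factor of macrophages (log2 change 1.78, adjusted p = 0.0044), and Tnfsf9, the ligand of the costimulator 4-1BB (at least 5.35-fold, adjusted p = 0.0050). Csf2 (23, 23.3 and 4.29 at 1 h, adjusted p = 0.25) and Il1rn (log2 change 1.81, adjusted p = 0.21) did not pass.

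Of 31 cytokine and chemokine receptor genes, 4 rose and 0 fell, with a median log2 change of 0.25. They were Ccrl2, a receptor that binds the protein chemerin without signalling (log2 change 3.13, adjusted p = 0.0093), the neutrophil chemokine receptor Cxcr2 (log2 change 2.08, adjusted p = 0.025), the interleukin 1 receptor Il1r1 (log2 change 1.68, adjusted p = 0.015) and Ccr1, a receptor of Ccl3 (log2 change 1.51, adjusted p = 0.016). With 1 array left out this count was 1 for control replicate 3, 2 for ConA 1 h replicate 1 and 1 for replicate 2 of that group.

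Immediate-early genes, the first that growth factors and cytokines switch on, were another group with large rises. The list holds mostly transcription factors, with some early genes of other kinds, such as Ier3 and Ccn2. Of 35 measured, 18 rose and 0 fell, with a median log2 change of 1.27. Fos, a subunit of the factor AP-1, had signals of 13.8, 3.34 and 10.1 in the control group and 533, 686 and 335 at 1 h (log2 change 6.00, SE 0.49, adjusted p = 0.00020). Its AP-1 partners Jun (67.7, 76.8 and 46 against 921, 919 and 622, log2 change 3.70, adjusted p = 5.8e-05) and Junb (71.8, 57.4 and 56.6 against 1119, 1176 and 923, log2 change 4.12, SE 0.13, adjusted p = 6.9e-07) rose with it, and the arrays of Junb within each group lay close together. Fosl2 had a log2 change of 2.88 (adjusted p = 0.00096), whereas its other probe was not called (log2 change 0.41). The zinc finger factors Egr1, Egr2 and Egr3 were also higher. Egr1 went from 38.3, 72.1 and 33.4 to 1482, 1425 and 827 (log2 change 4.74, SE 0.41, adjusted p = 0.00033), and Egr2 had a log2 change of 3.80 (adjusted p = 0.0031). The probe used for Egr3 went from 0.530, 0.464 and 6.97 to 78.9, 120.2 and 57.4 (log2 change 4.35, SE 0.37, adjusted p = 0.00028), whereas the mean signal of its other probe was 24.9 in the control group and 6.84 at 1 h, a log2 change of -2.04 (adjusted p = 0.056 over probes). The probes of Egr3 thus had log2 changes of opposite sign, and its rise rests on 1 of them.

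Ier3, an early response gene that modulates cell death, had signals of 14.5, 21.7 and 7.05 and 994, 1197 and 556 (log2 change 6.06, SE 0.44, adjusted p = 9.5e-05). Nr4a1 (log2 change 2.12, adjusted p = 0.00015) and Nr4a3 (log2 change 4.02, SE 0.30, adjusted p = 0.00013), nuclear receptors without a known hormone, rose, the latter from 1.46, 1.13 and 3.19 to 43.8, 84.7 and 34. The other 2 probes of Nr4a3 were not called, with log2 changes of 0.46 and 0.07. Atf3, a factor of the stress response, went from 3.28, 14.4 and 19.3 to 137, 168 and 87.8 (log2 change 3.71, SE 0.57, adjusted p = 0.011), with control arrays that differed almost 6-fold among themselves. The remaining calls were Btg2 (2.98), Ier5 (2.74), Csrnp1 (2.48), Ccn2 (2.07), Maff (1.22), Ier2 (1.12) and Klf2 (0.82), each given as a log2 change. Myc did not pass the test (log2 change 1.56, adjusted p = 0.099), although its arrays at 1 h (156, 128 and 93.8) all lay above the controls (30.8, 27.2 and 86.8).

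Genes that restrain or follow MAP kinase signalling rose as well. Of 25 on this list, 7 rose and 0 fell, with a median log2 change of 0.68. Gadd45g and Gadd45b, small proteins that bind the kinase MEKK4 and are induced by stress and cytokines, were both among the 4 largest rises. Gadd45g had control signals of 15.8, 8.33 and 63.5, an almost 8-fold range, and 1562, 1467 and 1493 at 1 h (log2 change 6.21, SE 0.60, adjusted p = 0.00058). Gadd45b went from 15.5, 7.14 and 13.8 to 932, 834 and 536 (log2 change 6.02, SE 0.37, adjusted p = 3.7e-05), and all 3 of its probes were called higher. The phosphatases that inactivate MAP kinases gave Dusp8 (log2 change 3.27, adjusted p = 0.00038), Dusp2 (log2 change 2.19, adjusted p = 0.0033) and Dusp6 (log2 change 1.26, adjusted p = 0.032), and the other calls were Rgs1 (log2 change 2.33, adjusted p = 0.0018), which shortens signals of G proteins, and the stress kinase Plk3 (log2 change 1.26, adjusted p = 0.010).

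Dusp1, the best known of these phosphatases, was not called. Its signals were 206, 183 and 214 in the control group and 711, 449.8 and 442 at 1 h, without overlap (log2 change 1.38, adjusted p = 0.44). The spread of this gene was widest at 6 h, where the 3 arrays read 218, 1385 and 1140.5, and in a fit of the 6 arrays the adjusted p was 0.11. A single gene of the list was lower when ConA 1 h replicate 3 was left out. Among 14 mRNA decay factors, 2 rose and 0 fell: Zc3h12a, an endonuclease that degrades cytokine mRNAs (log2 change 3.34, adjusted p = 0.0018), and Zfp36, which binds AU-rich elements of Tnf and other mRNAs. The other probe of Zc3h12a was not called (log2 change 0.25). Zfp36 had signals of 394, 367 and 357 and 2931, 2897 and 2225 (log2 change 2.84, SE 0.13, adjusted p = 7.0e-06), with the arrays of each group close together.

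Most genes of the NF-kB system rose. Of 26 NF-kB subunits, inhibitors and regulators measured, 18 rose and 0 fell (69.2%, beside 1.5% of all genes), with a median log2 change of 1.11. All 26 log2 changes were above 0, beside 11545 of all 18193 genes. The count of genes called higher was 11 without ConA 1 h replicate 2. Tnfaip3, which encodes the ubiquitin-editing inhibitor A20, had signals of 19.8, 26.3 and 35.9 and 1269, 1407 and 979 (log2 change 5.51, SE 0.24, adjusted p = 7.0e-06), and its second probe had a log2 change of 5.44. Nfkbia, the main cytoplasmic inhibitor of NF-kB, read 1876, 2139.8 and 1580.0 in the control group and 6317, 6128 and 5314 at 1 h (log2 change 1.67, SE 0.16, adjusted p = 0.00056). The atypical nuclear inhibitors Nfkbiz (84.6, 108 and 69.5 against 994, 995 and 813, log2 change 3.43, adjusted p = 0.00086), Nfkbid (log2 change 3.23, adjusted p = 0.0044) and Bcl3 (log2 change 1.96, adjusted p = 9.2e-05) rose, as did the cytoplasmic inhibitors Nfkbie (log2 change 1.49, adjusted p = 0.0041) and Nfkbib (log2 change 0.81, adjusted p = 0.016).

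Of the subunits, Rela, Rel, Relb and Nfkb2 rose, with log2 changes of 0.51, 1.35, 1.89 and 2.34. Rela was the smallest of these, at 445, 442 and 452 against 686, 654 and 568 (adjusted p = 0.033), and it lost its call after quantile normalization (adjusted p = 0.10), as Rel did (adjusted p = 0.064). The kinases Map3k8 (2.54) and Ikbke (1.03), the A20-binding proteins Tnip1 (1.12) and Tnip2 (1.07), the inhibitor of apoptosis Birc3 (1.11), Tnfaip2 (1.91) and the adaptor Tifa (1.23) complete the list of calls by log2 change.

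Socs3, which blocks signalling of interleukin 6 through STAT3, stood out among the JAK-STAT and SOCS genes. It went from 37.8, 60.3 and 90.6 to 3177, 2152 and 2263 (log2 change 5.40, SE 0.30, adjusted p = 2.8e-05), and its other 2 probes had log2 changes of 4.31 and 5.26. Of 22 genes on the list, 7 rose and 0 fell, with a median log2 change of 0.37. Leaving out control replicate 3 gave a count of 4, and so did leaving out ConA 1 h replicate 1. The others were Socs2 (log2 change 2.24, adjusted p = 0.020) and Cish (log2 change 1.73, adjusted p = 0.0091), feedback inhibitors of growth hormone and STAT5 signals, Socs1 (log2 change 2.19, adjusted p = 0.049), an inhibitor of interferon gamma signalling, the kinases Pim1 (log2 change 1.76, adjusted p = 0.00010) and Pim3 (log2 change 1.48, adjusted p = 0.0025), and Stat2 (log2 change 0.64, adjusted p = 0.022). The other probe of Stat2 was not called (log2 change -0.01).

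Some leukocyte adhesion molecules rose within the hour, and the cells that made them cannot be told from whole liver. Of 14 on the list 4 rose and 0 fell, with a median log2 change of 0.41. Icam1, a ligand of leukocyte integrins, had signals of 66.9, 70.3 and 77.4 in the control group and 1375, 1526 and 1243 at 1 h (log2 change 4.27, SE 0.10, adjusted p = 1.7e-07), and the arrays of each group lay within a narrow range. Sele, or E-selectin, on which leukocytes roll, went from 3.12, 7.63 and 7.51 to 96.9, 95.4 and 44.8 (log2 change 3.72, SE 0.38, adjusted p = 0.00088), with replicate 3 well below the other 2 at 1 h. Vcam1 went from 66.2, 88.7 and 52.6 to 373, 376 and 313 (log2 change 2.38, SE 0.19, adjusted p = 0.00015), and Cd44 rose by less (log2 change 0.78, adjusted p = 0.0097). Of 22 vascular, prostaglandin and clotting response genes, 3 rose and 0 fell, namely the proteases Adamts4 (log2 change 2.35, adjusted p = 0.00042) and Adamts1 (log2 change 1.61, adjusted p = 0.011) and the urokinase receptor Plaur (log2 change 2.09, adjusted p = 0.011).

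Acute-phase proteins, most of them made by hepatocytes, had begun to rise. Of 26 measured, 11 rose and 0 fell, with a median log2 change of 0.56. All 26 log2 changes were above 0, beside 11545 of all 18193 genes. Serum amyloid A genes gave the 2 largest changes: Saa3 went from 70.1, 205 and 84.2 to 1165, 1196 and 1177 (log2 change 3.47, SE 0.32, adjusted p = 0.00047) and Saa2 from 246, 497 and 524 to 4827, 3565 and 2438 (log2 change 3.12, SE 0.30, adjusted p = 0.00064). Saa1 went from 1711, 1849 and 2196 to 8154, 6429 and 5406 (log2 change 1.78, SE 0.15, adjusted p = 0.00021). Saa1 and Saa2 are near-identical, and their probes may share signal. Orm2 (log2 change 1.79, adjusted p = 0.00080), Lcn2, which binds bacterial siderophores (log2 change 2.22, adjusted p = 0.00091), the endotoxin receptor Cd14 (log2 change 2.29, adjusted p = 0.00087) and its carrier protein Lbp (log2 change 1.01, adjusted p = 0.00038) were higher, as were Crp (log2 change 0.90, adjusted p = 0.00080), Saa4 (log2 change 0.80, adjusted p = 0.0036) and Serpina3n (log2 change 0.84, adjusted p = 0.0066). Steap4, a metalloreductase, had signals of 645, 725 and 642 and 3742, 3452 and 3502 (log2 change 2.41, SE 0.09, adjusted p = 1.4e-06). On the same arrays Il6 had risen and none of the 12 hepatocyte markers was called.

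Factors that act upstream of acute-phase genes were measured too. Of 28 hepatocyte transcription factors and nuclear receptors, 2 rose and 0 fell, with a median log2 change of 0.15. Cebpd went from 80.1, 61.7 and 65.7 to 604, 513 and 465 (log2 change 2.93, SE 0.21, adjusted p = 8.7e-05) and Cebpb from 1655, 1373 and 1309.6 to 3363, 2918 and 2805 (log2 change 1.07, SE 0.13, adjusted p = 0.0032), both CCAAT-binding factors of the acute phase. Of 18 genes of the Toll-like receptor pathway, Tlr2, the receptor of bacterial lipoproteins (26.3, 30.3 and 21.9 against 269, 265 and 187, log2 change 3.19, SE 0.18, adjusted p = 2.8e-05), and the adaptor Myd88 (152, 159 and 141 against 397, 403 and 362, log2 change 1.36, SE 0.10, adjusted p = 8.4e-05) rose and 0 fell.

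The summed signal of neutrophil markers was higher on all 3 arrays at 1 h than on any control array. Of 15 measured, 6 rose and 0 fell, with a median log2 change of 0.92, and their summed signal was 436 to 663 in the control group and 2306 to 3745 at 1 h. Lcn2, which acute-phase hepatocytes also make and which the acute-phase list holds too, gave 64.4% to 65.0% of the sum on the control arrays and 53.5% to 65.0% at 1 h. Without it the other 14 markers, of which 5 rose, summed to 155 to 234 in the control group and 983 to 1311 at 1 h. Most of this sum at 1 h came from S100a8 and S100a9. Their mean signals were 482 and 409 at 1 h, against 24.3 and 23.0 in the control group. S100a8 and S100a9, the calcium-binding pair that is abundant in neutrophil cytoplasm, went from 30.6, 22.4 and 19.96 to 524, 539.9 and 382 (log2 change 4.32, SE 0.22, adjusted p = 1.8e-05) and from 25.4, 22.8 and 20.9 to 496, 415 and 317 (log2 change 4.13, SE 0.25, adjusted p = 3.7e-05). The others were Lcn2, Cxcr2, and the proteases Mmp9 (log2 change 2.02, adjusted p = 0.0094) and Mmp8 (log2 change 1.52, adjusted p = 0.042). The other probe of Mmp9 had a log2 change of -0.34 and was not called. The granule genes Mpo, Elane, Prtn3, Ltf, Ngp and Camp, defining markers of neutrophil precursors, were not called (log2 changes from -0.03 to 0.92), and none of the 15 was at the floor on all 6 arrays. The neutrophil markers moved with the chemokine, cytokine and acute-phase lists across the same arrays, and their part in those results was not tested.

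Interferon response and antigen presentation genes had changed in small part at 1 h. Of 41 measured, 8 rose and 0 fell, with a median log2 change of 0.27, and at 3 h and 6 h 35 and 37 were higher than the same controls, beside 5.15% and 15.4% of all genes. Irf1, the transcription factor that interferon gamma induces directly, went from 269.6, 293 and 242 to 2419.6, 2919 and 2079 (log2 change 3.19, SE 0.15, adjusted p = 1.0e-05), and Irf8 had a log2 change of 1.99 (adjusted p = 0.00033). Socs1, given above, and the guanylate-binding proteins Gbp3 (1.55), Gbp2 (1.38), Gbp6 (1.27) and Gbp7 (0.74) had also risen, as had the peptide transporter Tap1 (0.78, adjusted p = 0.036). The guanylate-binding proteins are a family of close relatives, and probes may share signal. With any one of the control arrays left out the count was 4, and with replicate 1 or replicate 2 at 1 h left out it was 3.

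Among 20 genes of T cell and natural killer T cell activation, 3 rose and 0 fell, with a median log2 change of 0.42. Cd69, the earliest surface marker of activated lymphocytes, had signals of 3.89, 2.98 and 1.24 and 38.6, 43.5 and 25.9 (log2 change 3.41, SE 0.24, adjusted p = 8.6e-05), and the other calls were Ifng and Il4. The count was 5 without ConA 1 h replicate 1. Il2, the T cell growth factor, was not called at 1 h (3.60, 18.3 and 10.2 against 3 control arrays under the floor, adjusted p = 0.25). Markers of T cells themselves gave 0 calls of 13 by limma (3 higher and 0 lower at an unadjusted p under 0.05), with a summed signal of 100.1 to 106 in the control group and 137 to 212 at 1 h. The sums did not overlap, but each was small, and without ConA 1 h replicate 3 there was 1 marker higher.

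Heat shock and redox genes rose in part. Of 25 heat shock and endoplasmic reticulum stress genes, 6 rose and 0 fell, with a median log2 change of 0.24. Hspa1a, an inducible chaperone of the HSP70 family, went from 11.2, 12.7 and 24.2 to 287, 187 and 376 (log2 change 4.17, SE 0.51, adjusted p = 0.0030), and the chaperone and co-chaperone genes Dnajb1 (185, 152 and 164 against 606, 505 and 642, log2 change 1.80, SE 0.21, adjusted p = 0.0019), Bag3 (log2 change 1.41, adjusted p = 0.012), Dnajb4 (log2 change 1.00, adjusted p = 0.0065) and Hspb8 (log2 change 0.67, adjusted p = 0.016) rose too. The near-identical Hspa1b did not pass (log2 change 1.98, adjusted p = 0.064), and probes of this pair may share signal. The sixth was Ppp1r15a, which restores translation after stress (log2 change 1.34, adjusted p = 0.045). Of 18 metallothioneins and oxidative stress genes, 3 rose and 0 fell. Mt2 and Mt1, metal-binding proteins that glucocorticoids, zinc and cytokines induce, went from 166, 364 and 54.5 to 3249, 3285 and 3177 (log2 change 4.44, SE 0.53, adjusted p = 0.0025) and from 458, 790.2 and 134 to 4806, 4986 and 4394 (log2 change 3.70, SE 0.50, adjusted p = 0.0061). In both genes the 3 control arrays differed more than 5-fold among themselves, with replicate 2 the highest and replicate 3 the lowest, whereas the arrays at 1 h were close together. Hmox1, which breaks down haem, rose from 49.7, 43.4 and 23.4 to 128, 202 and 226 (log2 change 2.29, SE 0.29, adjusted p = 0.0039).

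Most genes that glucocorticoids induce had a log2 change above 0 at 1 h (17 of 20, beside 11545 of all 18193 genes), and calls went in both directions. At an unadjusted p under 0.05, 11 were higher and 1 was lower, beside 1580 and 449 of all genes. Of 20 on the list, 3 rose and 1 fell, with a median log2 change of 0.84, and at 3 h 1 was higher and 8 were lower than the same controls, beside 5.15% and 14.7% of all genes. Sgk1, a kinase of salt transport (249, 154 and 185 against 888, 602 and 599, log2 change 1.83, SE 0.24, adjusted p = 0.0041), Lpin1, a phosphatidate phosphatase (509, 389.8 and 538 against 1308, 1146 and 1479, log2 change 1.46, SE 0.23, adjusted p = 0.014), and Tsc22d3, the leucine zipper GILZ (490.1, 383 and 518 against 862, 867 and 1006, log2 change 0.98, SE 0.16, adjusted p = 0.015), rose. Tsc22d3 lost its call after quantile normalization (adjusted p = 0.081). The largest uncalled changes were those of Rasd1 (log2 change 2.87, adjusted p = 0.066), Fam107a (2.80, adjusted p = 0.16) and Igfbp1 (2.62, adjusted p = 0.15). In each of these the 3 arrays at 1 h lay above the controls, and 2 control arrays of Rasd1 were at the floor. Arrdc3 fell, as described with the falls, and the count of 1 became 0 when control replicate 1, control replicate 2 or ConA 1 h replicate 2 was left out.

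Genes of the circadian clock numbered 21, of which 2 rose and 0 fell, with a median log2 change of -0.11. Noct, a rhythmic phosphatase of NADP, went from 359, 324 and 402 to 1232, 1360.1 and 1651 (log2 change 1.96, SE 0.25, adjusted p = 0.0036), and the core gene Clock from 79.7, 77.2 and 87.6 to 149, 171 and 119 (log2 change 0.83, SE 0.17, adjusted p = 0.048). Clock lost its call under most alternatives, among them quantile normalization, centring, and when any one of the control arrays, or replicate 1 or 2 at 1 h, was left out, so that 1 gene of the list was higher under each of these settings. At 3 h 1 clock gene was higher and 11 were lower than the same controls, beside 5.15% and 14.7% of all genes. The daily rhythm and ConA cannot be told apart in these counts.

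Growth arrest and cell death genes numbered 24, of which 4 rose and 0 fell, with a median log2 change of 0.31. Besides Btg2 and Plk3, given above, Phlda1 had signals of 796, 635 and 1341 and 3529, 3890.0 and 3169.8 (log2 change 2.00, SE 0.27, adjusted p = 0.0056), and the inflammatory caspase Casp4 rose (log2 change 1.26, adjusted p = 0.012). Cdkn1a, which encodes the cell cycle inhibitor p21, narrowly missed the threshold at 9.39, 12.3 and 26.4 against 65.4, 67.4 and 67.5 (log2 change 2.20, adjusted p = 0.052). Of 22 growth factors and their receptors, Inhbb, a subunit of activin B, was the only member called (log2 change 1.78, adjusted p = 0.0097), and the count was 2 when control replicate 3 or ConA 1 h replicate 3 was left out. The other probe of Inhbb had a log2 change of -1.01 and was not called, so that its rise rests on 1 probe. Of 20 cell junction and polarity genes, Gja1, which encodes connexin 43, rose (69.7, 73.7 and 54.4 against 252, 284 and 224, log2 change 1.95, SE 0.13, adjusted p = 6.0e-05) and 0 fell. That count was 2 after each array was centred on its median.

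**Figure D3:**
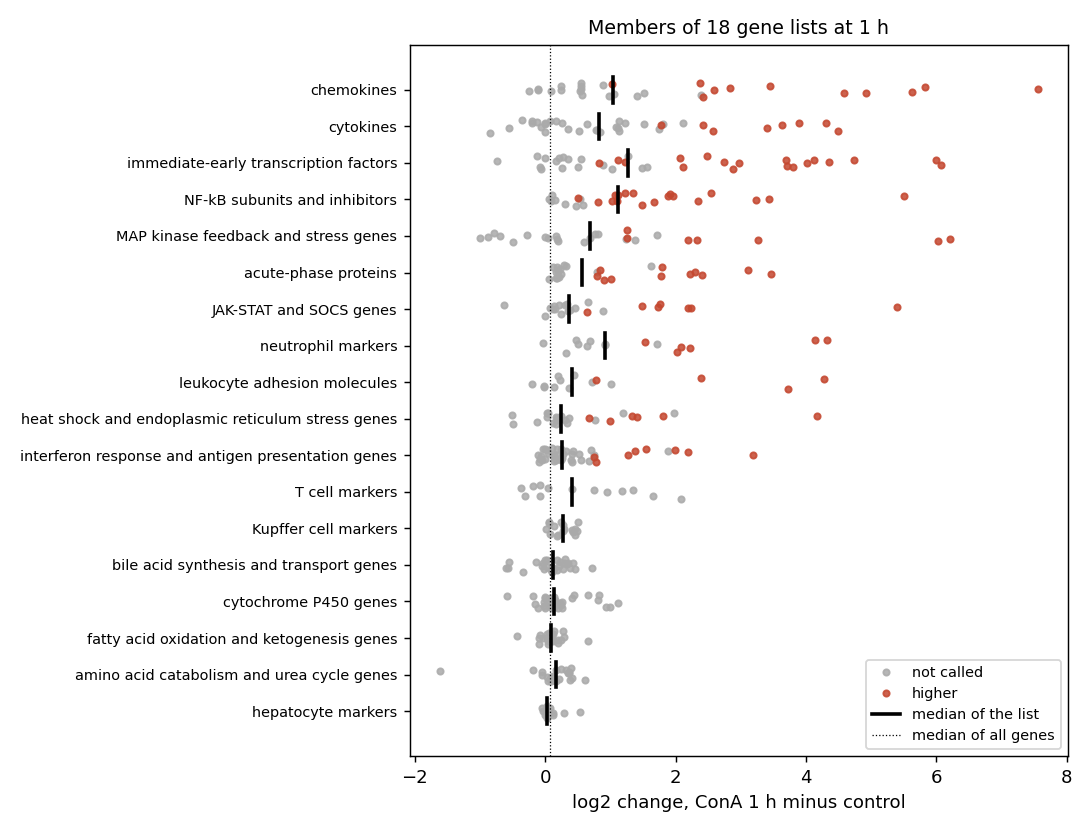
Log2 change, ConA 1 h minus control (horizontal axis), of each member of 18 gene lists (vertical axis), with members called higher in red, members not called in grey, the median of the list as a black bar and the median of all genes (0.08) as a dotted line. Red points are most numerous in the immediate-early and NF-kB lists, with 18 each, whereas the T cell, Kupffer cell, bile acid, cytochrome P450, fatty acid, amino acid and hepatocyte marker lists hold none.

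No member of the lists for hepatocyte metabolism was called, beside 1.5% of all genes called higher and 0.148% called lower. At those shares, lists of this size would hold few calls or none. By limma, 0 of 24 genes of glucose output and insulin signalling, 0 of 28 of bile acid synthesis and transport, 0 of 31 cytochrome P450 genes, 0 of 22 of fatty acid oxidation and ketogenesis, 0 of 23 of lipogenesis and cholesterol synthesis and 0 of 23 of amino acid catabolism and the urea cycle passed the test. At an unadjusted p under 0.05, these 6 lists held 5, 4, 2, 1, 1 and 4 genes higher and 0, 2, 0, 0, 0 and 1 lower. Of all 18193 genes, 1580 were higher and 449 lower at that p. Their median log2 changes were 0.11, 0.12, 0.14, 0.10, -0.15 and 0.17 beside 0.08 for all genes. Without ConA 1 h replicate 3 the lipogenesis list held 1 gene higher, and without ConA 1 h replicate 1 it held 1 lower. A missed threshold with 3 arrays per group does not show that these genes did not differ. At 6 h the same lists held 3, 1, 0, 0, 2 and 1 genes higher and 10, 17, 10, 10, 7 and 12 lower than the same controls, beside 15.4% and 12.7% of all genes.

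The largest uncalled changes within these lists were those of Igfbp1 and Ass1. Igfbp1, a liver protein that binds insulin-like growth factors, had signals of 774, 798 and 865 in the control group and 6682, 5554 and 3377 at 1 h, without overlap (log2 change 2.62, adjusted p = 0.15). Its spread was widest at 3 h, with signals of 2266, 380.0 and 2665, and the fit of the 6 arrays gave an adjusted p of 0.039. Ass1, a urea cycle enzyme, had signals of 242, 148 and 191 and 55.4, 45.2 and 95.1 (log2 change -1.61, adjusted p = 0.13). The 25 genes analysed here of the network that the study built, which is not the whole of it, were not called at 1 h by limma, with 0 higher and 0 lower (0 and 0 at an unadjusted p under 0.05) and a median log2 change of -0.01. At 3 h 22 of these 25 and at 6 h 25 of the 25 were lower than the same controls, beside 14.7% and 12.7% of all genes. The study chose them on these arrays, so that these later counts are not independent evidence of their direction.

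Markers of other cell types that whole liver can hold gave no calls by limma. They numbered 17 for Kupffer cells, 18 for sinusoidal endothelial cells, 19 for hepatic stellate cells, 14 for natural killer and cytotoxic lymphocytes, 10 for B cells, 11 for monocytes, 8 for cholangiocytes, 7 for erythroid cells, 9 for platelets and megakaryocytes, 7 for exocrine pancreas and 8 for muscle and adipose tissue. At an unadjusted p under 0.05, 5 Kupffer cell markers, 1 sinusoidal endothelial, 2 stellate, 2 natural killer, 2 platelet and 1 muscle or adipose marker were higher, and 1 natural killer and 1 B cell marker were lower. Of all 18193 genes, 1580 were higher and 449 lower at that p. All 17 Kupffer cell and 17 of 18 sinusoidal endothelial markers had log2 changes above 0, beside 11545 of all genes. Their medians were 0.27 and 0.22, against 0.08 for all genes. The summed signal of the Kupffer cell markers was 4257 to 5693 in the control group and 5275 to 6274 at 1 h, and that of the monocyte markers 505 to 630.0 and 486 to 758, so that both overlapped. The B cell markers summed to 242 to 311 in the control group and 166 to 196 at 1 h, without overlap. A single B cell marker was lower after quantile normalization, after centring and without ConA 1 h replicate 1. Of the muscle and adipose markers, Acta1 read 17, 174 and 25.6 at 1 h against 2.33, 1.84 and 4.16, so that replicate 2 stood far above all others, and 1 marker was higher without ConA 1 h replicate 1 or replicate 2. Among natural killer markers, 1 was higher without control replicate 1 and 1 was lower after quantile normalization and after centring. Cpa1 of the pancreas was the only marker of any cell type at the floor on all 6 arrays. Common reference genes gave 0 calls of 11 by limma (1 higher and 0 lower unadjusted), with a median log2 change of 0.05.

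The falls at 1 h were few. Of the 27, 7 are predicted transcripts known only by a clone or model number, and the 15 largest of the others are given here. Arrdc3, an arrestin-like adaptor that promotes the breakdown of membrane receptors, had signals of 1432, 1951 and 1028 in the control group and 370.3, 271 and 115 at 1 h (log2 change -2.65, SE 0.46, adjusted p = 0.020). The groups did not overlap, although the arrays differed about 2-fold among the controls and 3-fold at 1 h. Wee1, the kinase that delays entry into mitosis, fell from 329, 318 and 248 to 124, 75.1 and 89.7 (log2 change -1.65, SE 0.29, adjusted p = 0.022). Its second probe had mean signals of 84.1 and 37.7 and was not called (log2 change -1.18). Mup10, a major urinary protein secreted by hepatocytes, went from 1500.4, 1876 and 1540.4 to 837, 698 and 970.3 (log2 change -0.98, SE 0.16, adjusted p = 0.015), but the major urinary proteins are near-identical copies, and the probe may read several of them.

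Khnyn (214, 219 and 149 against 99.2, 92 and 80.3, log2 change -1.09, SE 0.18, adjusted p = 0.016), a protein that acts with the antiviral factor ZAP, Ppp1r9a (83.9, 94.8 and 71.1 against 41.6, 37.3 and 39.9, log2 change -1.06, SE 0.19, adjusted p = 0.025), an actin-binding scaffold, and Nos1ap (64.9, 65 and 66.9 against 35.9, 28.7 and 29, log2 change -1.08, SE 0.14, adjusted p = 0.0036), an adaptor of neuronal nitric oxide synthase, also had signals well above the floor in both groups. The other probes of Khnyn (log2 changes -0.33 and -0.57) and of Ppp1r9a (-0.09, -0.14, -1.61 and -0.30) were not called. Nor was the second probe of Nos1ap (-0.68). On the probe used, the 2 groups of Nos1ap were narrow and separate, and at 3 h and 6 h its signals of 170.0, 146 and 161 and 191, 221 and 158 lay above all controls.

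The other named falls were of dim probes. Wnt10a, a Wnt ligand, went from 19.2, 13.1 and 11.7 to 2.61, 4.33 and 2.20 (log2 change -2.07, SE 0.35, adjusted p = 0.019), and Adam22, a membrane protein without protease activity, from 13.3, 10.7 and 15.5 to 1.52, 4.54 and 2.78 (log2 change -1.90, SE 0.26, adjusted p = 0.0054), so that 2 of 3 arrays at 1 h were under the floor in each. The same held for Sync, a protein of muscle filaments (log2 change -1.52, adjusted p = 0.026), and all 3 arrays at 1 h were under it for Umodl1, at least 2.52-fold lower (adjusted p = 0.015), and for Sgo1, which protects sister chromatid cohesion, at least 2.10-fold lower (adjusted p = 0.0022). Bcas1 (log2 change -2.05, adjusted p = 0.038), Nemp2 of the nuclear envelope (log2 change -1.87, adjusted p = 0.0030), Palb2, the partner of Brca2 (log2 change -1.53, adjusted p = 0.016), and the homeobox gene Cphx3 (log2 change -1.36, adjusted p = 0.043) had 1 array or none under the floor at 1 h. None of the 15 kept its call under every alternative setting. Nos1ap lost it under 1, when its probes were averaged, whereas Bcas1 lost it under 14, among them each of the control replicates left out. The second probe of Adam22 had a positive log2 change of 1.06 that was not called. The other probes of Bcas1, Sync, Cphx3 and Sgo1 were not called either.

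**Figure D4:**
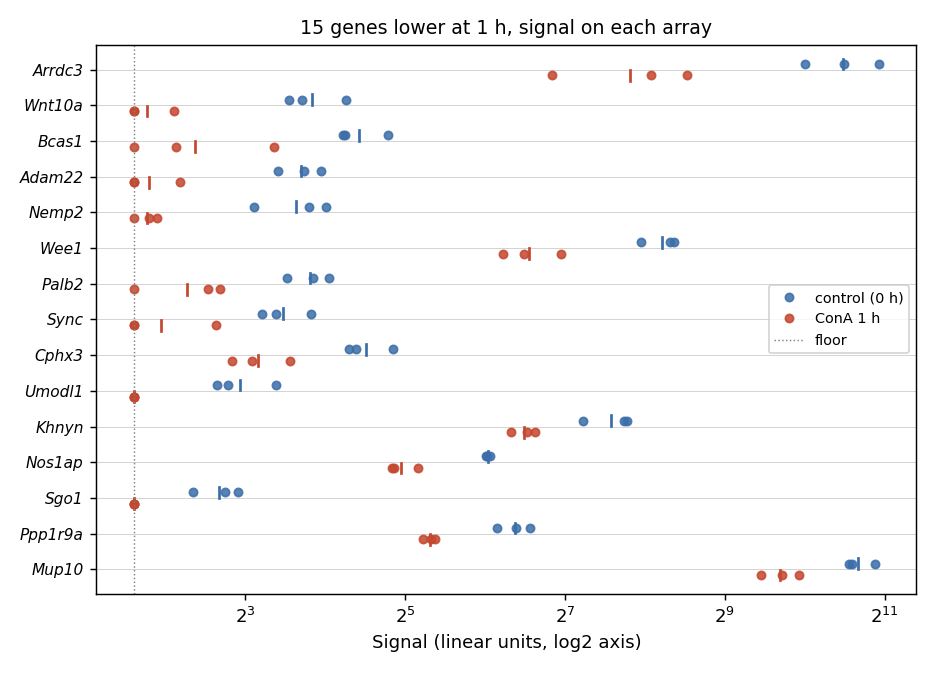
Signal on each array (horizontal log2 axis, linear units) of 15 genes lower at 1 h, with the 3 control arrays in blue, the 3 ConA 1 h arrays in red, the group means of log2 values as short vertical bars and the floor of 3.04, at which lower signals are drawn, as a dotted line. Arrdc3, Wee1, Khnyn, Nos1ap, Ppp1r9a and Mup10 lie far above the floor in both groups, whereas Umodl1 and Sgo1 reach it on all 3 arrays at 1 h.

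Levels at 1 h were set against those at 3 h, which share no arrays with each other, in order to see which rises were higher at the earlier time. Over all genes 561 (3.08%) were higher at 3 h and 3620 (19.9%) were lower then than at 1 h, but after quantile normalization these numbers were 1005 (5.52%) and 979 (5.38%), so that only calls made under both are named. Leaving out replicate 1 of the 1 h group gave 1872 lower genes, and leaving out replicate 3 of the 3 h group gave 2070. Of the 25 largest rises, which were chosen for their height on these same arrays at 1 h, 7 were lower and 6 higher at 3 h, and 4 were lower and 6 higher after quantile normalization.

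Cxcl2, Gadd45b, Hspa1a and Junb were lower at 3 h. Cxcl2 read 133, 101 and 138 at 3 h, a log2 change of -2.97 from 1 h (adjusted p = 0.0092), and Gadd45b read 136, 178 and 106 (-2.45, adjusted p = 0.0025). Hspa1a overlapped its control signals at 23.4, 46.3 and 14.7 (-3.43, adjusted p = 0.0023), whereas Junb was still high at 518, 639 and 564 (-0.90, adjusted p = 0.0023). In Cxcl2, Gadd45b and Junb all arrays at 3 h lay between those of the control group and those at 1 h.

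Cxcl10, Hcar2, Icam1, Rnd1, S100a8 and S100a9 were higher at 3 h than at 1 h. Cxcl10 reached 6007, 5339 and 5501 (1.73, adjusted p = 0.0091) and Icam1 3071, 2628 and 2650.0 (1.01, adjusted p = 0.00044). Rnd1, a small GTPase that loosens actin fibres and adhesion, went from 34, 42.6 and 22.5 in the control group through 594, 639 and 389 at 1 h (log2 change 4.05, SE 0.25, adjusted p = 4.1e-05) to 2383, 2768 and 2276 at 3 h (2.22, adjusted p = 0.00072). Hcar2, the receptor of hydroxybutyrate and niacin, went from 2.18, 4.85 and 1.81 through 72.4, 118 and 47.9 (log2 change 4.38, SE 0.30, adjusted p = 7.6e-05) to 327, 409.9 and 331 (2.26, adjusted p = 0.0015). S100a8 and S100a9 differed by 0.77 and 0.90 (adjusted p = 0.037 and 0.033). Cd83, a marker of mature dendritic cells and the remaining gene among the largest rises, had signals of 1.87, 11.2 and 5.42, 219, 205 and 145 and 105, 92.7 and 101 in the control group, at 1 h and at 3 h (log2 change 5.04, SE 0.39, adjusted p = 0.00014 at 1 h), and its difference between 1 h and 3 h did not pass the test.

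Over the lists, members higher at 3 h than at 1 h were most numerous among interferon response and antigen presentation genes, with 31 of 41 as deposited and 37 after quantile normalization, and among NF-kB genes, with 13 and 16 of 26. Of the acute-phase proteins, 9 of 26 were higher at 3 h than at 1 h as deposited and 13 after quantile normalization, and 0 were lower under either. The immediate-early list had 4 of 35 higher and 8 lower at 3 h as deposited, and 5 higher and 6 lower after quantile normalization. Of the 20 glucocorticoid-induced genes 12 were lower and 0 higher, and 9 and 0 after quantile normalization. These counts stand beside 3.08% of all genes higher and 19.9% lower as deposited, and 5.52% and 5.38% after quantile normalization.

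**Figure D5:**
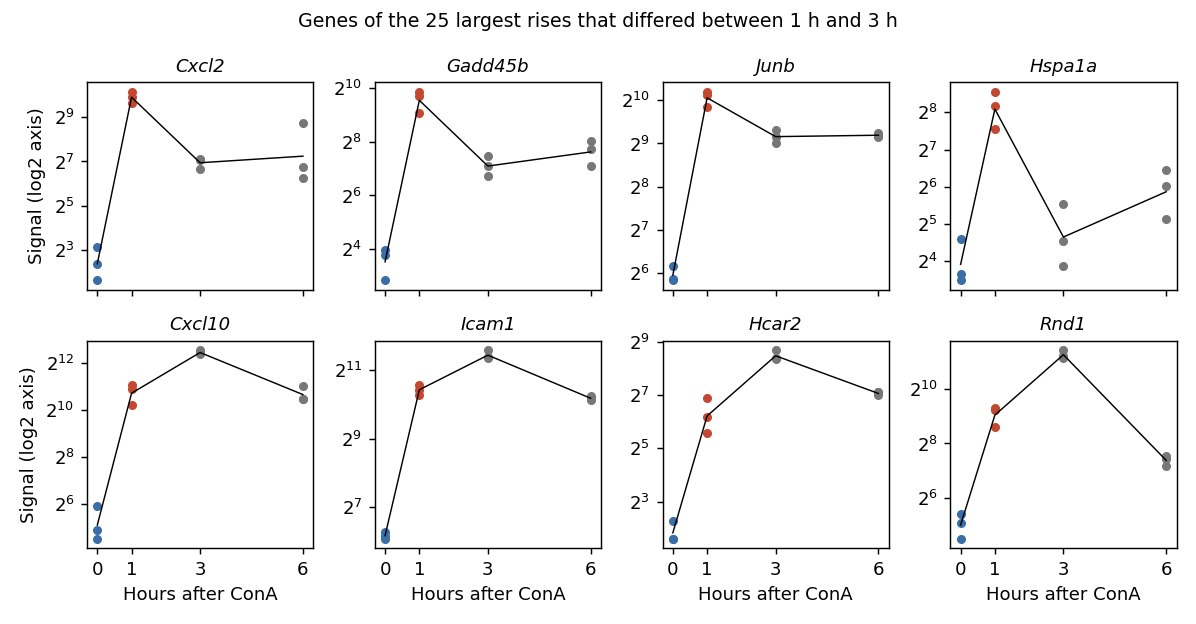
Signal on each array (vertical log2 axis, linear units) of 8 of the 25 largest rises against hours after ConA (horizontal axis, 0 h being the control group), with the means of log2 values joined by lines. In the upper row Cxcl2, Gadd45b, Junb and Hspa1a are highest at 1 h, and in the lower row Cxcl10, Icam1, Hcar2 and Rnd1 are highest at 3 h.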

How the data were processed

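The deposited table holds intensities of 45101 probes on a linear scale for 12 arrays. The authors' sample notes name MAS5 version 5.0, whereas the study's methods name RMA; the sorted values differed between arrays and were read as MAS5-like signals. The 64 control probes were left out. Values were set to a floor at the 20th percentile (3.04) and log2 was taken without new scaling. Gene symbols came from the platform annotation, updated by Entrez ID for 34741 probes of the 34945 with 1 symbol; 932 probes with several and 9160 with none were not named. The probe with the highest mean stood for each of 18193 genes.

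The comparison was made by limma 3.58.1 under R 4.3.3, with the means of 4 groups fitted to all 12 arrays, two-sided, and Benjamini-Hochberg adjustment over all genes. On simulated data for this comparison, 74% of 2-fold and 97% of 4-fold changes were recovered. These changes were set at 1 h only, with normal noise, in genes above the median signal. The shares therefore do not hold for dim genes or those near the floor. The number of arrays limits the precision. Genes named are the 25 largest rises and 15 largest falls past the threshold without overlap of groups (predicted genes passed over), the called members of each list and its 3 largest other changes. The 44 lists (846 of 929 genes measured) and these rules were chosen with earlier results of these data known. List genes without a value are not analysed here, and the list for the study's network leaves out a member that is not reported here. The sum of neutrophil markers without Lcn2 was added after seeing the data. The alternatives were quantile normalization, median centring, other floors, a filter, an intensity trend, the 6 arrays alone, a replicate block, a 2-fold rule, other probe rules and each array left out; leaving out arrays for list counts was chosen after seeing the data.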

Additional observations from a re-analysis of the deposited data

Results flagged for a closer look

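Some of the genes named at 1 h differed between 1 h and 3 h by a test of the difference itself, both as deposited and after quantile normalization, and their log2 differences are 3 h minus 1 h. Of the largest rises at 1 h, 4 were lower at 3 h: Cxcl2 (-2.97), Gadd45b (-2.45), Hspa1a (-3.43) and Junb (-0.90). Another 6 were higher at 3 h: Cxcl10 (1.73), Hcar2 (2.26), S100a8 (0.77), Icam1 (1.01), S100a9 (0.90) and Rnd1 (2.22). Of the 15 falls, 4 were higher at 3 h than at 1 h: Bcas1 (1.64), Adam22 (1.44), Sync (1.12) and Nos1ap (2.36). The signals of Nos1ap on the single arrays were 64.9, 65 and 66.9 in the control group, 35.9, 28.7 and 29 at 1 h and 170.0, 146 and 161 at 3 h, so that it lay below all controls at 1 h and above them at 3 h. All of these genes were chosen on the arrays at 1 h, which enter both differences.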

How the results depend on the processing

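The 272 genes higher and 27 lower at 1 h numbered 106 and 7 when only the 6 arrays compared were fitted, and 579 and 115 when all 45037 probes were tested in place of genes. Lower genes numbered 72 after quantile normalization and 45 after centring. With 1 array left out, higher genes ranged from 193 (without ConA 1 h replicate 1) to 320 (without ConA 1 h replicate 3) and lower genes from 19 to 37. Deviations from the group means of control and 1 h arrays with the same replicate number correlated at 0.030, 0.0048 and 0.0062. Those of arrays with unlike numbers correlated at -0.035 to 0.028. These values run over all probes, many of them dim, so they do not show whether the arrays were paired. As a replicate block the number gave 240 higher and 28 lower genes at 1 h, and 560 and 3676 between 1 h and 3 h. Between 1 h and 3 h the 561 genes that went up and the 3620 that went down became 1005 and 979 after quantile normalization and 940 and 793 after centring, and ranged from 422 to 575 and from 1872 to 3784 with 1 array left out. The lowest of these, 1872, came without replicate 1 of the 1 h group, and leaving out replicate 3 of the 3 h group gave 2070. The cause of these shifts was not tested.

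For 197 of the genes named, no call in 1 direction became a call in the other under any alternative. The sign of a gene's uncalled change can depend on the probe, as in Hgf. Its 3 probes had log2 changes of 0.62 (the probe used), -1.65 and -0.47. The probe at -1.65 was called lower when all probes were tested by limma (adjusted p = 0.046). Some genes called higher also had other probes that were not called, among them Dusp8, Csrnp1, Adamts4, Gbp6 and Tap1. The fit of the 6 arrays left 116 on the same side of the threshold and took the call from 79, quantile normalization 184 and 11, the floor at the 40th percentile 179 and 18, and the mean of all probes 170 and 24. Signals near the floor of 3.04 limit the folds of dim probes, which are set by the floor and not by a measured level in the lower group.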

Other observations

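Genes outside the lists also rose at 1 h, and those named here were chosen after their values were seen. Of the 272 higher genes, 127 belonged to a list. Mmp13, a collagenase, went from 6.95, 6.77 and 4.03 in the control group to 75.2, 89.4 and 60.9 at 1 h (log2 change 3.69, SE 0.22, adjusted p = 2.9e-05). Clec4e, the Mincle receptor of fungal and mycobacterial lipids, had 3 control arrays under the floor and read 22.6, 33.1 and 23.1 at 1 h, at least 8.49-fold higher (adjusted p = 2.4e-05), and its neighbour in the family Clec4d read 28.6, 33.8 and 33.2 (log2 change 3.15, SE 0.22, adjusted p = 7.6e-05). The formyl peptide receptor Fpr2 (log2 change 2.01, SE 0.10, adjusted p = 1.8e-05), the prostaglandin E2 receptor Ptger4 (log2 change 2.34, SE 0.15, adjusted p = 4.1e-05), the inflammasome sensor Nlrp3 (log2 change 2.02, SE 0.35, adjusted p = 0.020) and Cd274, which encodes the T cell inhibitor PD-L1 (log2 change 2.15, SE 0.33, adjusted p = 0.012), were also higher.

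Regulators of transcription and calcium signalling were among them as well. Jdp2, a partner of AP-1 proteins, went from 28.4, 33.6 and 17.9 to 219, 189 and 216 (log2 change 3.01, SE 0.24, adjusted p = 0.00017) and was back at 27.1, 28.3 and 26.9 by 3 h. Rcan1, an inhibitor of calcineurin, went from 228, 238 and 323 to 2261, 2201 and 1792 (log2 change 3.00, SE 0.17, adjusted p = 2.9e-05). Arid5a, which stabilizes the mRNA of Il6, rose from 19.99, 11 and 3.81 to 110.1, 94.7 and 66.9 (log2 change 3.24, SE 0.51, adjusted p = 0.013), and Batf2 from 2.76, 5.78 and 4.02 to 34.3, 50.02 and 33.9 (log2 change 3.23, SE 0.23, adjusted p = 8.7e-05). Metabolic enzymes outside the hepatocyte lists, Arg2, the mitochondrial arginase (log2 change 2.17, SE 0.34, adjusted p = 0.013), and Pfkfb3, which speeds up glycolysis (log2 change 2.39, SE 0.48, adjusted p = 0.044), rose, and Pfkfb3 lost its call after quantile normalization (adjusted p = 0.070).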
